A study of Mus musculus with 3 samples.

Results

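The 10 genes described here were Fos, Fosb, Fosl2, Jun, Junb, Jund, Atf3, Egr1, Ier2 and Dusp1, a set of AP-1 subunits and other immediate-early genes chosen by symbol from the 32285 genes in the tables. All 10 were present in all 3 libraries. Single-cell RNA-seq libraries (10x 3′ v3) had been made from cells of the intima, the inner lining of the artery, dissected from the lesser curvature of the aortic arch. The LPS group was 1 library of C57BL/6J wild-type mice that had received 30 µg of ultrapure lipopolysaccharide, a bacterial cell-wall component, into a vein 18 h before harvest. The control group was 2 libraries of untreated C57BL/6J wild-type mice. In both groups the mice were 12 to 13 weeks old, the sexes were pooled, and each library pooled 5 to 10 animals. All 3 libraries had also been exposed to actinomycin D, which blocks transcription, at 1 µg/mL in the perfusate and 2 µg/mL during dissection, before a digestion of 10 min at 37 °C with collagenase D and DNase I. No library without actinomycin D was analysed here, so levels present in the animal and levels induced during isolation cannot be told apart.

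AP-1 is a family of dimeric transcription factors assembled from Jun proteins (Jun, Junb, Jund), Fos proteins (Fos, Fosb, Fosl2) and Atf proteins such as Atf3. Fos, Fosb, Jun, Junb, Egr1, Ier2 and Dusp1 are classical immediate-early genes: their transcripts appear within minutes of a stimulus without new protein synthesis and are short-lived, whereas Jund is transcribed at a steady level in many cells. Growth factors, bacterial products, shear and mechanical or enzymatic handling of tissue are all known to induce them, through MAP kinases that act on factors bound to their promoters. Egr1 is a zinc-finger transcription factor, Ier2 a small nuclear protein of less certain function, Atf3 a stress-induced repressor, and Dusp1 a phosphatase that switches the MAP kinases off again.

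A promoter sequence from RefSeq (GRCm38.p6) was found for 8 of the 10 genes. The 6 printed here belong to the genes that were higher with LPS in at least 1 cell class or, for Dusp1, whose LPS difference varied between classes. Each is the 250 bases before the RefSeq start, 5′ to 3′ on the strand of the gene, with the cAMP-response element TGACGTCA, its core TGACG (read CGTCA on the other strand), the AP-1 site TGACTCA and the sequence TATAA in capitals. The windows are chr7:19310046-19310295 for Fosb, chr1:191183334-191183583 for Atf3, chr5:32136222-32136471 for Fosl2, chr8:84978749-84978998 for Junb, chr12:85473640-85473889 for Fos and chr17:26508473-26508722 for Dusp1. Those of Atf3, Fosl2 and Dusp1 lie inside the longest annotated extent of the gene, at an internal start.
Fosb: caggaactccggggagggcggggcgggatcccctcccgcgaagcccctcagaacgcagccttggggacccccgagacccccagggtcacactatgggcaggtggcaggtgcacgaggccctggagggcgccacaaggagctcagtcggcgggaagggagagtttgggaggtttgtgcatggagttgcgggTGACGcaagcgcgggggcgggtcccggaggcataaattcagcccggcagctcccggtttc
Atf3: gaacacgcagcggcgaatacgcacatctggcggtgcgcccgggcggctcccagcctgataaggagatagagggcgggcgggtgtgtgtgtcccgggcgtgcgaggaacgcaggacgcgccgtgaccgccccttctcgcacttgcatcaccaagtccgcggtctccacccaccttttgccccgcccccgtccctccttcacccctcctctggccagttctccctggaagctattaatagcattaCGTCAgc
Fosl2: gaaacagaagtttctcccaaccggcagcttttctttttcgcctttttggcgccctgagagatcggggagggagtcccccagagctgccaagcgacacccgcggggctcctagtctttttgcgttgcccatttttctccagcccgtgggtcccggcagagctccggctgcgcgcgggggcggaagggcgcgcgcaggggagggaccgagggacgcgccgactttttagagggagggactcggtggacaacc
Junb: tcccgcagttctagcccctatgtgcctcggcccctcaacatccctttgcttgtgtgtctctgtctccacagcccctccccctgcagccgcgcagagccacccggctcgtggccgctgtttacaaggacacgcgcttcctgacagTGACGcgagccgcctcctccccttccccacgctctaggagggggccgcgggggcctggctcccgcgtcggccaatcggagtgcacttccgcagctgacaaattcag
Fos: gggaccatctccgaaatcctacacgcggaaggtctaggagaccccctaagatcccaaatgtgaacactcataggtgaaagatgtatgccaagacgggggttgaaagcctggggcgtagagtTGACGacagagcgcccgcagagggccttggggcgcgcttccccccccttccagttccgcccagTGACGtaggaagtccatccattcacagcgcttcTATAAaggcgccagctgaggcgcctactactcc
Dusp1: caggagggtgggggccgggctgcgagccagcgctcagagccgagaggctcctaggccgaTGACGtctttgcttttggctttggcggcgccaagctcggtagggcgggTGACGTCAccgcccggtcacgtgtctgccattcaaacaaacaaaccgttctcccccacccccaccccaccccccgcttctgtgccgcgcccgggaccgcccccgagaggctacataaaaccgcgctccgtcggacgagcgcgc

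The TGACG core occurred in 5 of these 6 windows, all but that of Fosl2. In Fos it lay at 129 to 125 and at 66 to 62 bases before the start, in Fosb at 60 to 56, in Junb at 106 to 102 and in Atf3 at 7 to 3. Dusp1 had 3 copies, 2 of which form the complete TGACGTCA at 143 to 136 bases before the start. Across all 32851 promoters of the table, 17.8% held TGACG and 1.55% the complete element, on either strand. Fos had TATAA at 33 to 29 bases before the start, a sequence held by 22.8% of promoters. GCGGGGGCG, a site of the Egr family, lay in Fosb (50 to 42) and Fosl2 (79 to 71), against 2.57% of promoters; the NF-kB motif was matched in Fos, Fosb and Fosl2, against 5.00%. These last matches are left in lower case. The AP-1 site (4.46% of promoters), the other Egr site GCGTGGGCG (0.536%) and the CArG box (1.47%) were not matched in any of the 8 windows. The Jund window ends upstream of the annotated Jund start, so it is not the sequence next to it.

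In the GENCODE annotation of GRCm38, the build of the deposited data, Fos lies at chr12:85473890-85477273 on the plus strand, Fosb at chr7:19302696-19310051 on the minus strand and Fosl2 at chr5:32135801-32157842 on the plus strand. Jun lies at chr4:95049034-95052222, minus strand. Junb, Jund and Ier2 share chromosome 8, at 84974484-84978718 (minus), 70698949-70700616 (plus) and 84661331-84662852 (minus). Atf3 is at chr1:191170296-191218039 (minus), Egr1 at chr18:34859823-34864984 (plus) and Dusp1 at chr17:26505590-26562128 (minus). Jun, Jund and Ier2 have no intron in the annotated transcripts. Annotated genes overlap Jun (Junos, antisense), Junb (Prdx2, opposite strand), Jund (Gm11175, antisense), Atf3 (Gm24748) and Dusp1 (Ergic1 and 3 others). The partners of Jun, Junb, Jund and Atf3 lie on the opposite strand, while Dusp1 also has partners on its own strand. The sources do not say whether the counting used strand, and the part of these overlaps in the counts was not tested.

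The LPS library held 6000 barcodes and 21864072 UMIs, and the control libraries 1269 and 4813 barcodes with 4940996 and 20069697 UMIs. After filtering, 8284 of 12082 barcodes remained: 5156 in the LPS library, 431 in control 1 and 2697 in control 2. At most 8 barcodes of a library were shared with another library. The libraries stood apart in their dominant transcripts: Gm42418, a locus that overlaps ribosomal RNA, took 28.6% of UMIs in the LPS library and 9.81% and 1.59% in controls 1 and 2, and haemoglobin took 25.2%, against 44.0% and 7.91%. Sub-clusters rich in Gm42418 held 3564 of the LPS barcodes, against 4 and 0 in controls 1 and 2. These got no class, and the 10 genes summed to 836 raw CPM in them in the LPS library. Their best marker match was smooth muscle for sub-clusters of 1162, 758 and 528 LPS barcodes. It was fibroblast for 929, macrophage for 178 and erythroid for 9. The classes below thus leave out LPS barcodes that may belong to the same cell types. With clusters of 1 step the phagocyte-like class held 363 LPS cells. Cells were clustered without the 10 genes and named by marker lists, as "-like" classes, since no annotation of cells was among the files analysed. Of the named classes, 4 reached 20 cells in each of the 3 libraries: endothelial-like (201 LPS cells, 86 and 100 in controls 1 and 2), phagocyte-like (192, against 82 and 209), fibroblast-like (162, against 32 and 73) and lymphoid-like (103, against 164 and 1679). Doublets were not called. Median mitochondrial percents were 8.64 in LPS endothelial-like cells, against 6.01 and 12.0 in controls 1 and 2, and lay below both controls in LPS phagocyte-like (3.99, against 6.73 and 12.6), fibroblast-like (4.38, against 5.80 and 12.1) and lymphoid-like cells (4.12, against 5.78 and 10.6). Their part in the results was not tested. In the endothelial-like class, all 15 endothelial markers were detected in every library and summed to 6062 CPM (UMIs of the genes per 1e6 UMIs of the class) in LPS cells, against 8548 and 10788 CPM in controls 1 and 2. Smooth-muscle markers were not absent there: 12 of 12 were detected in LPS cells, summing to 534 CPM, against 10 of 12 at 695 CPM (Actg2 and Des at 0) in control 1 and 12 of 12 at 3883 CPM in control 2.

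For the comparison of LPS with control, UMIs were summed over the cells of a class in each library and tested with edgeR's quasi-likelihood test, with Benjamini-Hochberg adjustment over all genes tested and a threshold of 0.05. With 1 LPS library the fit assumes that it varies as the controls do, with 1 residual degree of freedom, and an exact permutation over the libraries could not go below p = 0.333. The test also borrows its estimate of spread from other genes, to a degree that differed between classes. In endothelial-like and fibroblast-like cells the p-values were close to those of a spread taken as known. In phagocyte-like and lymphoid-like cells a given ratio of log2 fold change to SE gave a larger p-value. Calls and p-values are thus not comparable between classes. Nothing beyond the pooling of animals is known of how separate the libraries are, so p-values measure the spread between these libraries only, which may be technical. Values per library below are CPM on totals scaled by TMM normalization unless called raw.

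In endothelial-like cells, the LPS library held more Fosb, Atf3, Fosl2 and Junb than either control, with fitted folds of 2.73 for Junb, 2.84 for Fosl2, 5.59 for Atf3 and more for Fosb, while Fos, Jun, Egr1 and Dusp1 lay near or between the controls. Thus 4 of the 10 genes were higher and 0 lower in edgeR (0 lower also at an unadjusted p under 0.05 and in DESeq2), where 7.56% of the 8412 genes tested were higher and 7.01% lower. The LPS value lay above both controls for 5 of the 10, against 38.1% of all genes, and below both for 2, against 36.3%. The 10 genes had a median log2 fold change of 0.54, against -0.01 over all genes tested.

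Fosb, a Fos protein, had 87 UMIs (50.4 CPM) in LPS endothelial-like cells, against 0 and 2 UMIs (0 and 3.1 CPM) in controls 1 and 2. The groups did not overlap, and the ratio of 22.9 had a counting interval of 6.16 to 192; the fitted log2 fold change was 4.45 ± 0.82 (SE; edgeR, adjusted p = 2.1e-06). In control 1, the 0 UMIs allow up to 11.0 raw CPM, the level of 3 UMIs. Atf3 had 60.3 CPM in LPS cells (104 UMIs), against 26.5 CPM (7 UMIs) and 3.1 CPM (2 UMIs) in controls 1 and 2. Its controls differed several-fold from each other, and its log2 fold change of 2.48 ± 0.56 (edgeR, adjusted p = 2.17e-04) became 4.2 without control 1 and 1.13 without control 2. Without control 1, that of Fosb was 3.94; without control 2, its bound was 2.10, from 3 UMIs in place of 0.

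Fosl2, whose protein is Fra-2, had 108 CPM in LPS endothelial-like cells (186 UMIs), against 41.6 and 35.7 CPM in controls 1 and 2, with a log2 fold change of 1.51 ± 0.43 (edgeR, adjusted p = 0.00585). Junb had 373 CPM (643 UMIs), against 148 and 127 CPM, with a log2 fold change of 1.45 ± 0.41 (edgeR, adjusted p = 0.00476). For both, the controls lay close together and the LPS library well above them. Both calls were lost when a sub-cluster of 63 shallow control 1 cells, whose second-best match was another class, was left out (adjusted p = 0.0760 and 0.207), although the fitted log2 fold changes stayed at 1.52 and 1.31; Fosb and Atf3 passed there too. The same pair of calls was lost when the 10 genes were used in the clustering, and that of Junb with clusters of 1 step. With DESeq2 in place of edgeR none of the 10 passed.

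The remaining endothelial-like values did not pass the test. Ier2 had 171 CPM in LPS cells, against 87.0 and 118 CPM in controls 1 and 2 (log2 fold change 0.71 ± 0.41, edgeR adjusted p = 0.278). Fos had 56.2 CPM, against 64.3 and 31.0 CPM. Egr1 had 227 CPM, against 253 and 171 CPM. Dusp1 had 76.0 CPM, against 53.0 and 110 CPM. In these last 3 genes the LPS library lay between the controls. Jun had 293 CPM, against 359 and 340 CPM, and Jund 232 CPM, against 374 and 419 CPM, both below both controls (log2 fold changes -0.25 ± 0.41 and -0.78 ± 0.42, edgeR adjusted p = 0.777 and 0.236).

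**Figure D1:**
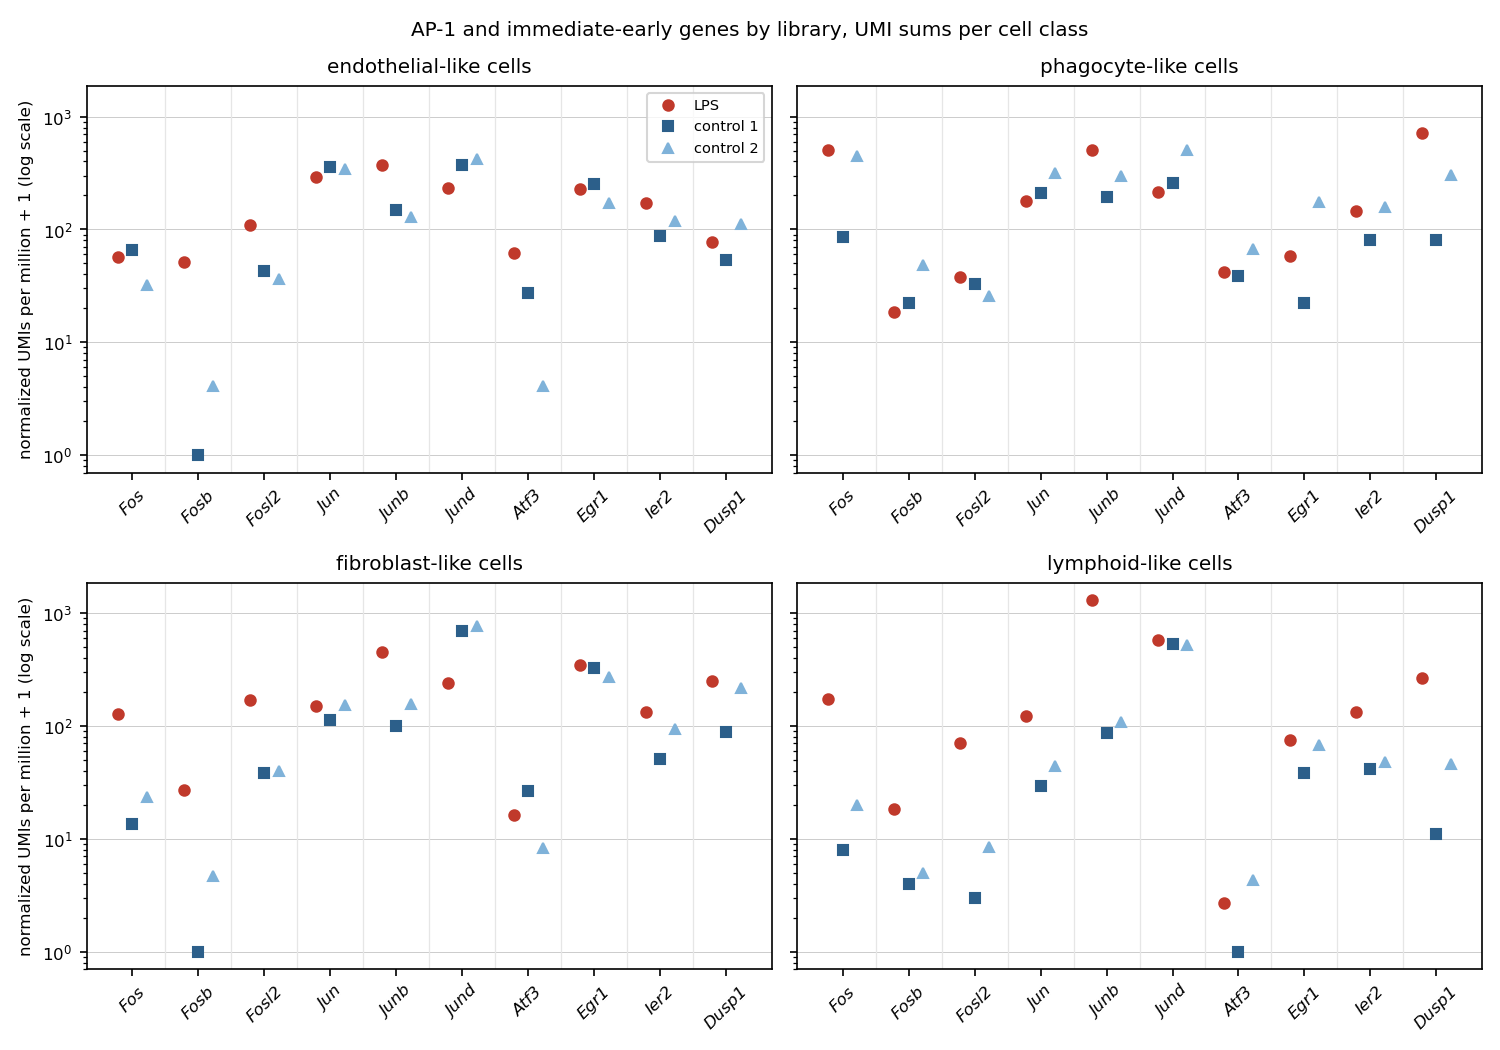
Normalized CPM plus 1 (log axis) of the 10 genes in the LPS library (circles) and controls 1 and 2 (squares and triangles), for UMI sums of each of the 4 classes; genes that were not tested are on raw totals. In endothelial-like cells Fosb sits at 50.4 CPM in the LPS library, against 0 and 3.1 CPM in the controls, and in phagocyte-like cells the controls lie far apart for Fos (85.3 and 448 CPM).

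The endothelial-like cells of the LPS library all fell into sub-clusters that held no control cell. These were led by Stab1 (94 cells), Ccl2 (60 cells), Fabp4 (33 cells) and Cxcl2 (14 cells), while the control cells fell into other sub-clusters, among them 1 led by Tmem158 (49 cells of control 2). Different sub-clusters thus hold the class in the groups. Within the LPS library, raw Fosb levels were 96.7 CPM in the Stab1-led cells, 33.8 CPM in the Ccl2-led cells and 10.0 CPM (1 UMI) in the Fabp4-led cells. The median mitochondrial percent of UMIs was 12.4, 4.62 and 3.48 in the same order, and its part in the Fosb levels was not tested. Atf3 was ordered otherwise, at 26.4, 65.0 and 69.8 raw CPM in the same sub-clusters. Junb was at 277, 366 and 359 raw CPM, where the 3 control sub-clusters with at least 20 cells in a library had 48.7 to 76.6 raw CPM; the smaller control sub-clusters are not given alone, and the class as a whole had 143 and 139 raw CPM in controls 1 and 2. Jund was at 233, 222 and 200 raw CPM, against 414 to 556 raw CPM in the same control sub-clusters and 364 and 456 raw CPM in the whole class in controls 1 and 2. The 14 cells of the Cxcl2-led sub-cluster were too few to be given alone.

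In fibroblast-like cells, Fos, Fosl2 and Junb were higher in the LPS library than in either control, and Jund was lower. The fitted folds over both controls together were 3.33 for Junb, 4.36 for Fosl2 and 6.25 for Fos. That makes 3 of the 8 genes tested higher and 1 lower, where 7.44% of the 5469 genes tested were higher and 4.97% lower. The LPS value lay above both controls for 6 of the 8 and below both for 1, against 38.3% and 32.9% of all genes. This is on TMM-scaled totals. On raw totals Dusp1 lay between the controls, at 213 CPM against 89.7 and 244, and Egr1 below both, at 294 against 333 and 310. Fos had 127 CPM in LPS cells (79 UMIs), against 12.5 CPM (1 UMI) and 22.5 CPM (7 UMIs) in controls 1 and 2, with a log2 fold change of 2.64 ± 0.63 (edgeR, adjusted p = 5.67e-04). Fosl2 had 168 CPM (104 UMIs), against 37.4 and 38.5 CPM (3 and 12 UMIs), with a log2 fold change of 2.12 ± 0.54 (edgeR, adjusted p = 0.00142). Junb had 450 CPM (279 UMIs), against 99.8 and 154 CPM (8 and 48 UMIs), with a log2 fold change of 1.74 ± 0.45 (edgeR, adjusted p = 0.00221). In all 3 the LPS library stood clear of the controls, on few control UMIs. DESeq2 called none of the 3 higher, and Fos alone remained called when the 10 genes were used in the clustering.

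Jund, in contrast to its relatives, had 237 CPM in LPS fibroblast-like cells (147 UMIs), against 699 and 770 CPM in controls 1 and 2 (56 and 240 UMIs). Its log2 fold change was -1.63 ± 0.47 (edgeR, adjusted p = 0.00731), and it was the gene of the set that passed with DESeq2 as well; it did not pass without the filter on low counts or when the 10 genes were used in the clustering. Fosb and Atf3 did not reach the filter on low counts: Fosb had 19 UMIs in LPS cells, against 0 and 1 in controls 1 and 2, and Atf3 had 11, against 2 and 2. Jun, Egr1, Ier2 and Dusp1 did not pass, with log2 fold changes of 0.11, 0.22, 0.70 and 0.56. Of the LPS fibroblast-like cells, 129 of 162 came from a sub-cluster led by Dcn, Saa3 and Angptl7, which held 1 cell of control 1 and 0 of control 2. The other 33 LPS cells, with a median of 8340 UMIs against 2179, held 62 of the 79 Fos, 70 of the 104 Fosl2 and 200 of the 279 Junb UMIs. Raw levels in these 33 cells were 149 CPM for Fos, against 55.4 in the 129 cells, 168 against 111 for Fosl2 and 480 against 257 for Junb. Jund was at 197 against 212 raw CPM. The part of depth in these levels was not tested. Fibroblast markers, all 12 detected in each library, summed to 21772 CPM in LPS cells, against 44595 and 51525 CPM in controls 1 and 2. The part of this difference in the results was not tested.

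In phagocyte-like cells (macrophage, monocyte and dendritic markers), none of the 10 genes passed the test in either direction. Over all 8869 genes tested, 4.25% passed, 2.82% higher and 1.43% lower, and DESeq2 also called 0 of the 10. Dusp1 was the 1 gene of the 10 with an unadjusted p under 0.05. Dusp1 had the highest level of the 10 in LPS phagocyte-like cells: 721 CPM (1153 UMIs), against 80.0 CPM (15 UMIs) and 304 CPM (269 UMIs) in controls 1 and 2, a log2 fold change of 1.85 ± 0.63 (edgeR, adjusted p = 0.108; 0.0236 without a filter on low counts, and up to 0.393 under other settings). The LPS library stood above both controls, but the controls themselves differed several-fold. Fos had 506 CPM in LPS cells, against 85.3 and 448 CPM in controls 1 and 2. The controls lay furthest apart for Egr1, which had 57.5 CPM, against 21.3 and 173 CPM. Junb had 504 CPM, against 192 and 295 CPM (log2 fold change 1.03 ± 0.56, edgeR adjusted p = 0.451). The LPS library was above both controls for 4 of the 10 genes and below both for 3 (Jun, Jund and Fosb), against 36.1% and 31.1% of all genes. Marker levels differed too. Of 11 neutrophil markers, 9 were detected in LPS phagocyte-like cells (all but Ly6g and Camp), summing to 538 raw CPM, against 2 at 19.3 and 3 at 22.6 raw CPM in controls 1 and 2, with S100a8 and S100a9 at 0 in both controls. The 10 monocyte markers summed to 4622, against 1681 and 965, and the 11 macrophage markers to 8109, against 15449 and 17560. The 12 dendritic markers summed to 1045, against 197 and 233. Their part in the levels of Dusp1 and the other genes was not tested.

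Levels in the control phagocytes differed between sub-clusters. In control 2, 38 cells led by Rgs1 had 619 raw CPM of Fos, 389 of Junb, 337 of Dusp1 and 491 of Jun. The 151 cells led by Fcer1g had 52.4, 72.0, 124 and 170. These groups held 121 and 16 of the 396 Fos UMIs of the class in control 2. The larger part lay in the few remaining cells, in sub-clusters too small to be given alone. Among these was 1 led by Mmp12 (14 cells of control 2), with a median of 15762 UMIs per cell. Of control 1, 61 of the 82 phagocyte-like cells fell into a sub-cluster led by H2-Eb1. It had 70.6 raw CPM of Junb and 0 UMIs of Fos, where 3 UMIs would stand at 35.3 raw CPM. All 16 Fos UMIs of control 1 phagocyte-like cells thus lay in the other cells. In the LPS library, 36 cells led by Lyz2, with a median of 17760 UMIs per cell, had 730 raw CPM of Fos and 839 of Dusp1, and 128 cells led by Ccl5, with a median of 2337 UMIs, had 250 and 351. Clusters were made without the 10 genes, so none of these levels was used to form them. The Rgs1-led cells also had 102 raw CPM of Fosb and 235 of Egr1, against 23.1 and 57.1 in the Lyz2-led LPS cells.

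In lymphoid-like cells, every one of the 9 genes tested lay above both controls in the LPS library on TMM-scaled totals, against 38.6% of the 9708 genes tested. None lay below both, against 40%, but Junb alone passed the adjusted threshold. It had 1302 CPM in LPS cells (743 UMIs), against 86.4 and 108 CPM (86 and 1205 UMIs) in controls 1 and 2, a log2 fold change of 3.74 ± 0.43 (edgeR, adjusted p = 0.0493). That call, 1 of 9 where 0.649% of genes were higher and 0% lower, was close to the threshold: with DESeq2's size factors it stood at 0.0521, and over all alternatives between 3.5e-12 and 0.0621. Fos had 172 CPM, against 7.04 and 19.0 CPM (log2 fold change 3.56 ± 0.54, edgeR adjusted p = 0.0912). Fosl2 had 70.1 CPM, against 2.01 and 7.41 CPM (3.60 ± 0.62, edgeR adjusted p = 0.110), and Dusp1 265 CPM, against 10.1 and 44.6 CPM (3.15 ± 0.74, edgeR adjusted p = 0.178). The groups were far apart in these 3 genes. Jund had 571 CPM, against 532 and 516 CPM, a log2 fold change of 0.13 ± 0.42. On raw totals Jund lay between the controls, at 548 CPM against 486 and 589. Egr1 did so too, at 70.6 against 34.0 and 75.5 raw CPM. Atf3 was not tested, with 1 UMI in LPS cells, against 0 and 33 UMIs in controls 1 and 2.

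Most lymphoid-like cells carried thymocyte markers such as Rag1 and Cd8b1: 73 of 103 in the LPS library, against 138 of 164 and 1426 of 1679 in controls 1 and 2. Without those sub-clusters, 30 LPS cells were compared with 26 and 253 control cells, and 5 of the 8 genes tested passed: Junb, Fosl2, Dusp1 and Fos higher, Egr1 lower. Of all 4728 genes tested there, 4.21% were higher and 2.56% lower. In these cells Junb had 1793 CPM in the LPS library, against 228 and 248 CPM in controls 1 and 2, and Dusp1 had 428 CPM, against 0 and 67.1 CPM (log2 fold changes 2.90 ± 0.46 and 3.1 ± 0.45, edgeR adjusted p = 7.82e-06 and 1.54e-06). Egr1 turned round: 30.2 CPM (7 UMIs) in LPS cells, against 228 and 189 CPM (33 and 298 UMIs), a log2 fold change of -2.75 ± 0.53 (edgeR, adjusted p = 2.24e-04), where with all lymphoid-like cells it was 0.48. The LPS cells here were led by Gzma and Gzmb, genes of cytotoxic lymphocytes, and most control 2 cells by Trac, Lef1 or Ms4a4b, so cell type and LPS cannot be told apart in this comparison. In the thymocyte-marker cells, raw Junb levels were 1195 and 787 CPM in the LPS sub-clusters led by Trbc2 and Satb1, against 102 CPM in the main sub-cluster of control 1 and 29.2 to 163 CPM in those of control 2 with at least 20 cells.

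**Figure D2:**
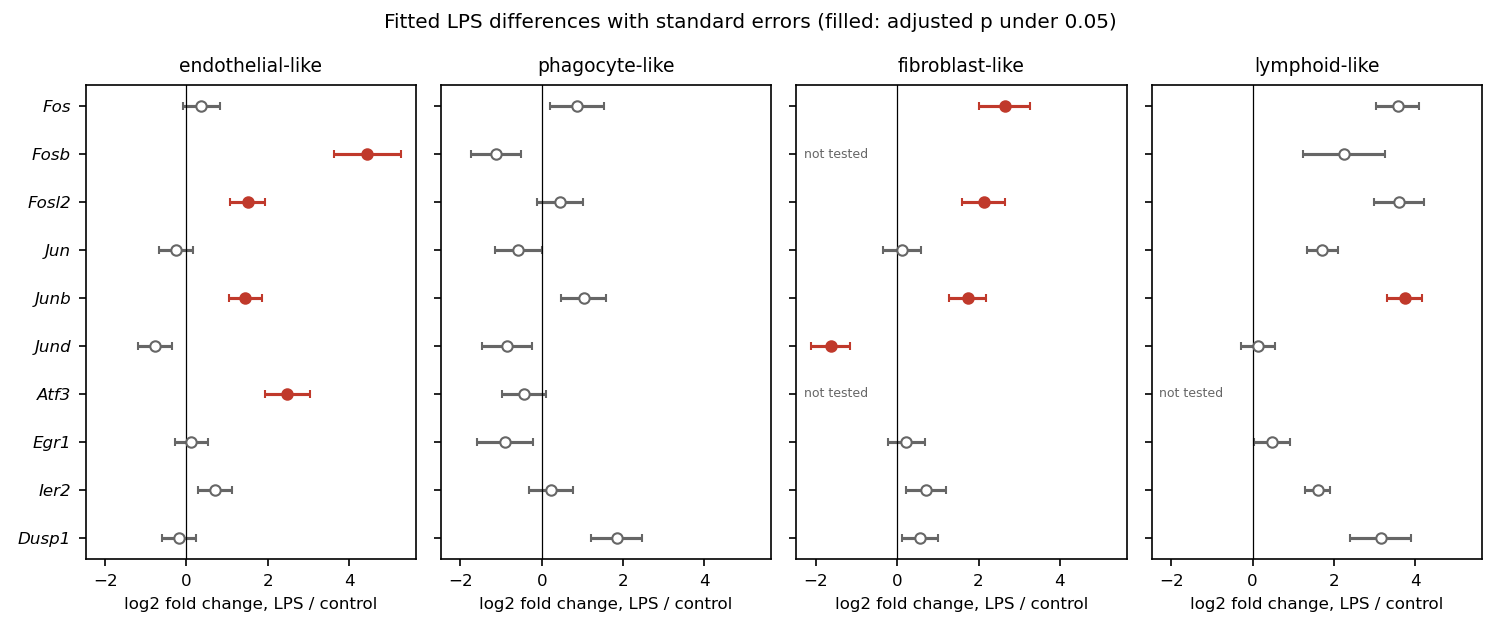
Fitted log2 fold change of LPS over control (x axis) with its standard error for each of the 10 genes in the 4 classes; filled points passed an adjusted p of 0.05 in edgeR's quasi-likelihood test. Junb is filled in endothelial-like (1.45), fibroblast-like (1.74) and lymphoid-like (3.74) cells, and Jund in fibroblast-like cells (-1.63).

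Across the 4 classes, Junb and Fosl2 were above both controls in the LPS library in all 4, and Junb passed in 3 and Fosl2 in 2. Fos was above both controls in 3 classes and passed in 1. Egr1, Ier2, Jun and Dusp1 passed in none of them. The classes share their libraries, so these are not independent observations, and calls are not comparable between classes.

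Whether the LPS difference itself varied between classes was tested as an interaction in edgeR, with the library as a block. Between endothelial-like and phagocyte-like cells, 2 of the 10 genes differed, where 0.815% of 10190 genes did. Fosb had a log2 fold change larger by 5.56 ± 1.03 in endothelial-like cells (adjusted p = 7.3e-05): its level was 50.4 CPM in LPS endothelial-like cells, against 0 and 3.1 CPM in controls 1 and 2, and 17.5 CPM in LPS phagocyte-like cells, against 21.3 and 47.5. Atf3 had one larger by 3.0 ± 0.74 (adjusted p = 0.0104), with 40.7 CPM in LPS phagocyte-like cells, against 37.3 and 65.6 CPM. Both values moved with the control library: without control 1 that of Fosb was 5.39 and that of Atf3 4.90, and without control 2 that of Fosb was 2.46, on 3 UMIs in place of 0, and that of Atf3 1.09. Between endothelial-like and lymphoid-like cells, 2 of 10 differed, where 0.853% of 10662 genes did. Fos and Dusp1 had smaller log2 fold changes in endothelial-like cells, by -3.15 ± 0.73 and -3.41 ± 0.77 (adjusted p = 0.00618 and 0.00438). Without control 1 these were -2.14 and -2.92, and without control 2 they were -4.59 and -4.0. The call for Fos was lost with DESeq2's size factors (adjusted p = 0.0831) and without the thymocyte-marker cells (adjusted p = 0.382). Between endothelial-like and fibroblast-like cells, 0 of the 10 passed, where 1.04% of 8463 genes did; the difference for Fos was -2.14 ± 0.73 (unadjusted p = 0.00323, adjusted p = 0.167). It was the one gene of the 10 with an unadjusted p under 0.05 in that comparison.

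On raw totals, the summed level of the 10 genes in the LPS library lay between the controls in 2 of the 4 classes and above both in 2. Jund's share of it was below both controls in all 4. In endothelial-like cells the sum was 1557 raw CPM in the LPS library, against 1367 and 1478 raw CPM in controls 1 and 2. In fibroblast-like cells it was 1630, against 1487 and 1962, and in phagocyte-like cells 2415, against 915 and 2591, the LPS library lying between the controls in both. In lymphoid-like cells it was 2614, against 682 and 979. Gm42418 took 22.2% of fibroblast-like UMIs in the LPS library, against 19.7% and 1.85% in controls 1 and 2. Raw sums are not scaled between libraries, and their order need not hold on the TMM-scaled totals used for the tests. Jund's share of the UMIs of the 10 genes is a ratio within each library that needs no scaling between libraries. It was 14.1% (exact 95% interval 12.8 to 15.4) in LPS endothelial-like cells, against 26.6% and 30.9% in controls 1 and 2. It was 8.77% in LPS phagocyte-like cells, against 25.3% and 21.6%. In fibroblast-like cells it was 12.5%, against 48.3% and 44.6%, and in lymphoid-like cells 21%, against 71.3% and 60.1%. Erythroid-like barcodes showed the same direction, with 31.5% in the LPS library, against 54.5% in control 2. Of those in control 2, 18 fell into a sub-cluster that also had thymocyte genes among its leading genes. The share was not tested, and the intervals cover counting error only.

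**Figure D3:**
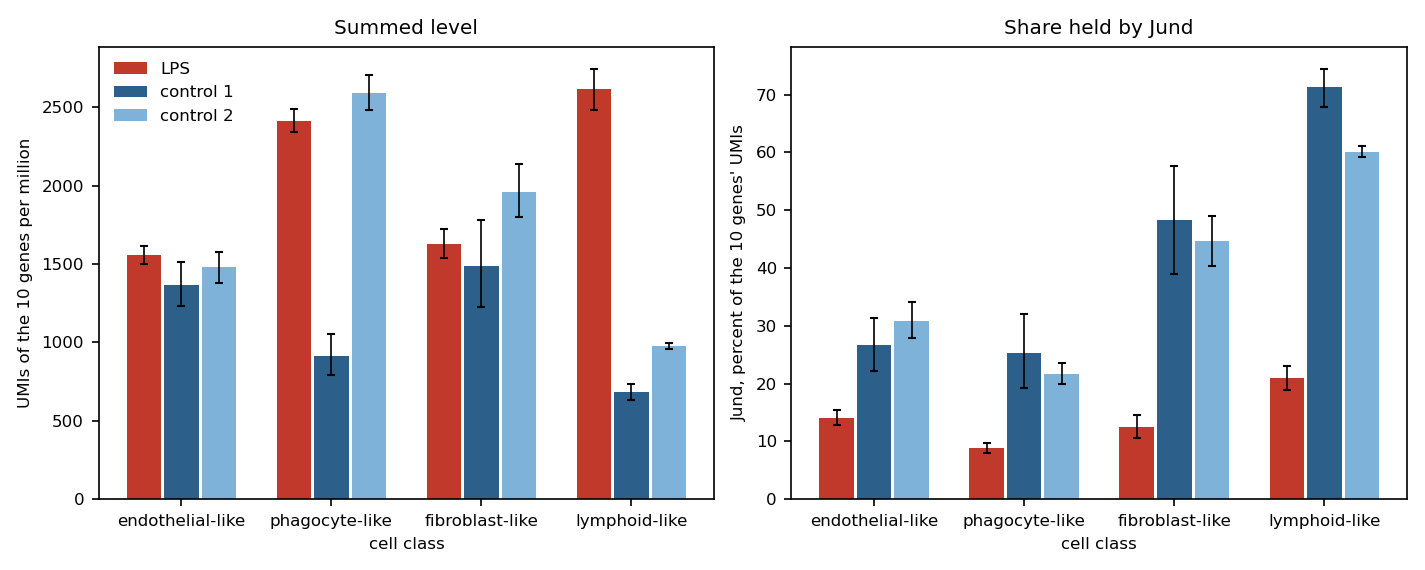
Left, summed raw CPM of the 10 genes; right, percent of those UMIs that were Jund, for the LPS library and controls 1 and 2 in 4 classes, with exact 95% counting intervals. The summed level of endothelial-like cells is 1557 in the LPS library, against 1367 and 1478 in the controls, while Jund holds 14.1% of it, against 26.6% and 30.9%.

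Across all named classes with at least 20 cells in a library, the highest summed level was in LPS neutrophil-like cells (34 cells), at 5400 raw CPM. There Dusp1 was at 1525 raw CPM, Fos at 1512 and Junb at 1024, while Atf3 had 0 UMIs, which allows up to 8.0 raw CPM. Controls held 3 and 1 neutrophil-like cells, so no comparison was made. Levels of 1 gene over classes are given on raw CPM with exact Poisson intervals, which cover counting error only. In the LPS library Fos followed the order neutrophil-like 1512, phagocyte-like 505, mesothelial-like 212, lymphoid-like 165, fibroblast-like 109, adipocyte-like 56.6, endothelial-like 53.2 and erythroid-like 8.85 raw CPM. The intervals of neighbours overlapped from mesothelial-like down to endothelial-like cells, but not at either end. In control 2, Fos was at 497 raw CPM in phagocyte-like cells and between 21.7 and 45.9 in smooth muscle-like, endothelial-like, fibroblast-like and lymphoid-like cells. In control 1 it was at 77.1 raw CPM in phagocyte-like and 62.5 in endothelial-like cells, with overlapping intervals.

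Junb was highest in lymphoid-like cells of the LPS library, at 1248 raw CPM, then in neutrophil-like cells at 1024 and phagocyte-like cells at 503. In both controls it was highest in phagocyte-like cells, at 173 raw CPM in control 1, with an interval overlapping those of endothelial-like and fibroblast-like cells, and at 327 in control 2, with no such overlap. Egr1 and Jund had their highest control levels in fibroblast-like cells: Egr1 at 333 and 310 raw CPM in controls 1 and 2, Jund at 718 and 875. For both, the interval overlapped that of the next class in control 1 but not in control 2. Jun was highest in endothelial-like cells in both controls, at 349 and 370 raw CPM, with an interval overlapping that of the next class in each. Fosb and Atf3 had their highest LPS levels in mesothelial-like cells (38 cells), at 80.4 and 61.1 raw CPM, with intervals overlapping those of endothelial-like cells at 47.7 and 57 raw CPM. In control smooth muscle-like cells (35 and 61 cells) the sum of the 10 genes was 914 and 1042 raw CPM. The LPS library had 0 cells of this class, but many of its Gm42418-rich barcodes, which got no class, matched smooth muscle best. A marker gate in place of clusters named 247 LPS barcodes smooth muscle-like, against 48 and 677 in controls 1 and 2.

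Free RNA was gauged on erythroid-like barcodes, which should lack most of these transcripts. A sub-cluster with 18 of those of control 2 and 1 of the LPS library also had thymocyte genes such as Trbc2 and Rag1 among its leading genes. The summed level of erythroid-like barcodes was 174 raw CPM in the LPS library (792 barcodes) and 323 in control 2 (386 barcodes). Control 1 had 4 and is not used. Per barcode, the background amounted to a median over the 10 genes of 9.84% of the endothelial-like level in the LPS library, against 17.9% in control 2. The corresponding shares were 7.18% and 12.0% for phagocyte-like, 16.8% and 24.5% for fibroblast-like and 16.3% and 47.6% for lymphoid-like cells.

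**Figure D4:**
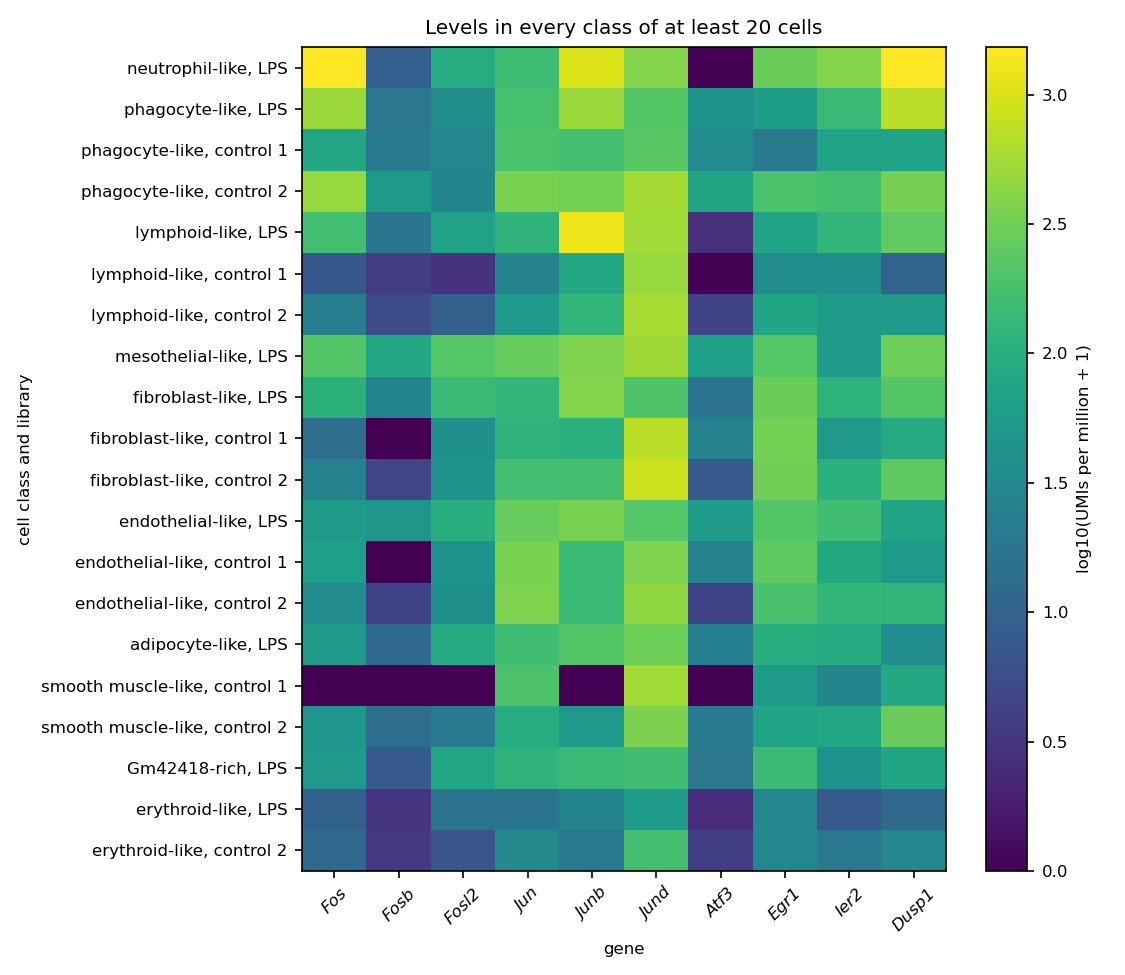
Raw level of each of the 10 genes as log10(CPM + 1), in every class and library with at least 20 cells, and in the Gm42418-rich barcodes of the LPS library. The top row, LPS neutrophil-like cells, is brightest for Dusp1 (1525 CPM) and Fos (1512 CPM), and the LPS row of lymphoid-like cells is brightest for Junb (1248 CPM).

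To compare cells at equal depth, each was thinned to 1000 UMIs, which left out 33 of 86 endothelial-like, 29 of 82 phagocyte-like, 13 of 32 fibroblast-like and 2 of 164 lymphoid-like cells of control 1, and no cell of the other libraries in these classes. At this depth a median of 1 of the 10 genes was detected per cell in all 3 libraries of each of the 4 classes. Junb was detected in 24.9% of LPS endothelial-like cells (exact 95% interval 19.1 to 31.4), against 5.66% (1.18 to 15.7) and 12.0% (6.36 to 20) in controls 1 and 2; in erythroid-like barcodes it was in 5.05% in the LPS library and 1.81% in control 2. Unthinned, the endothelial-like shares were 63.2%, against 9.30% and 29.0%, at median depths of 4763, 1165 and 3479 UMIs per cell. In lymphoid-like cells Junb was detected in 46.6%, against 5.56% and 11.4% (unthinned 79.6%, against 28.0% and 36.5%). Fos was detected in 18.8% of LPS phagocyte-like cells, against 11.3% and 18.7% in controls 1 and 2 (unthinned 35.9%, against 11.0% and 28.2%). Dusp1 was detected in 27.1%, against 7.55% and 18.7% (unthinned 49.5%, against 11.0% and 34.4%). Jund was detected in 17.9% of LPS fibroblast-like cells, against 31.6% and 43.8% (unthinned 41.4%, against 43.8% and 68.5%), and in 5.81% of LPS and 17.4% of control 2 erythroid-like barcodes. In lymphoid-like cells the Jund share, 29.1% against 48.8% and 49.3%, went against its CPM, so no order is read from it.

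**Figure D5:**
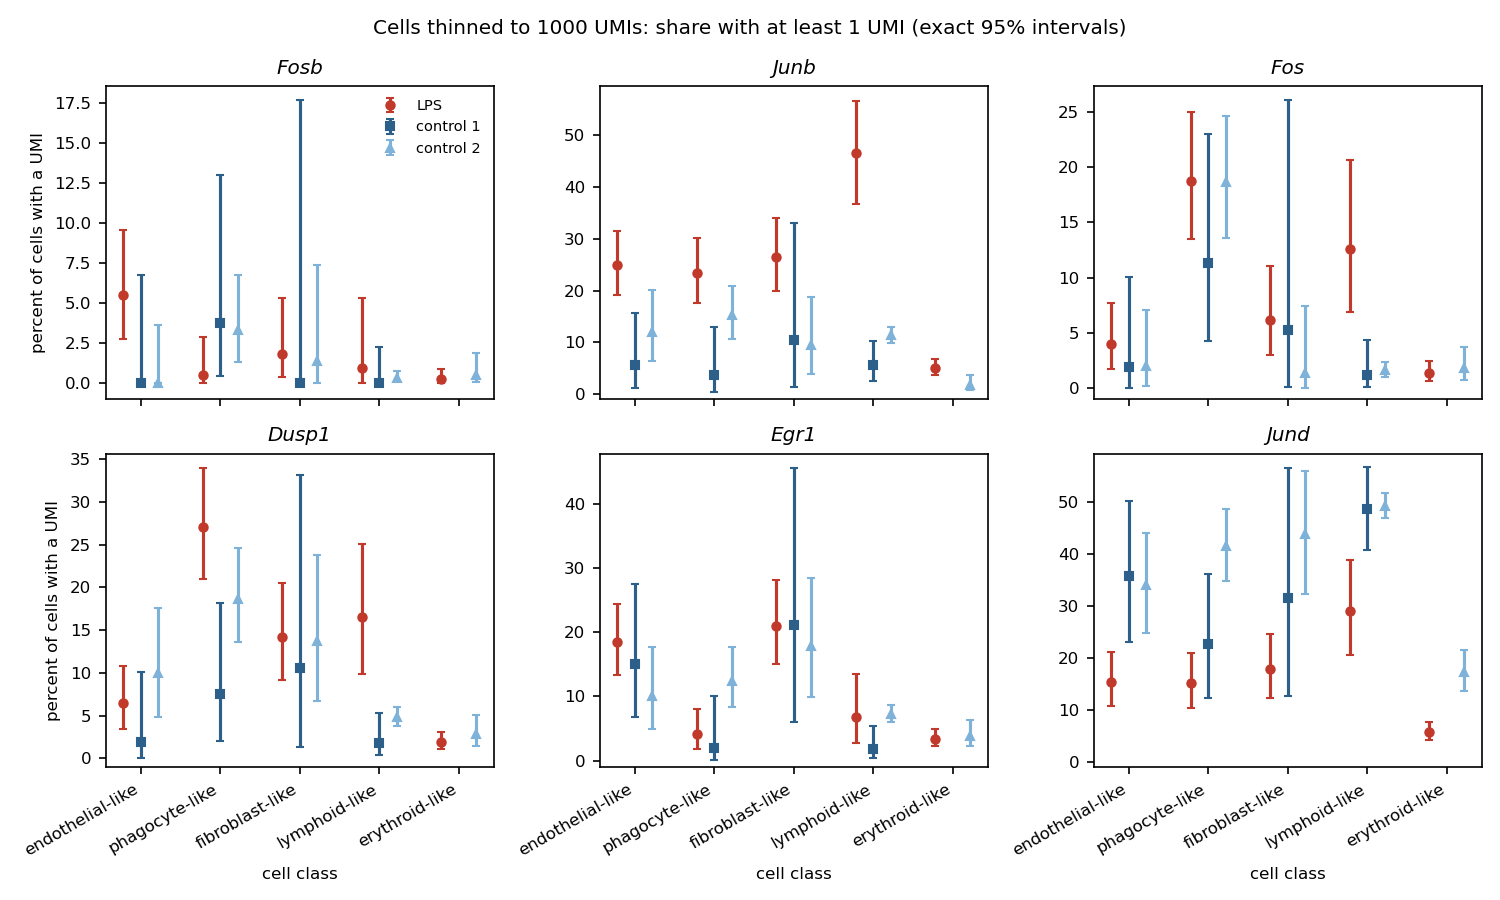
Percent of cells with at least 1 UMI of 6 of the genes after thinning each cell to 1000 UMIs, with exact 95% binomial intervals, in 4 classes and in erythroid-like barcodes. The LPS library sits highest for Junb in endothelial-like (24.9%) and lymphoid-like cells (46.6%), and for Fos in phagocyte-like cells it sits beside control 2 (18.8% and 18.7%).

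The UMIs of the 10 genes were unevenly spread over cells. At 1000 UMIs per cell the variance of their sum exceeded its mean, with a ratio (Fano factor, 1 for counting noise alone) of 2.13 in LPS endothelial-like cells, against 1.23 and 1.91 in controls 1 and 2. It was 2.39 in LPS phagocyte-like cells, against 1.57 and 2.37, and 2.57 in LPS lymphoid-like cells, against 1.23 and 1.10. In fibroblast-like cells it was 2.50, against 2.54 and 2.22, with the LPS library between the controls. At 500 UMIs per cell the LPS value of phagocyte-like cells lay between the controls, at 1.61, against 1.52 and 1.86. That of fibroblast-like cells then lay above both, at 1.77, against 0.91 and 1.42. In LPS phagocyte-like cells, 36 of 192 cells had a Fos UMI, and of those 63.9% also had Junb (23 cells, exact 95% interval 46.2 to 79.2) against 14.1% of the cells without Fos (22 of 156, 9.05 to 20.6). Dusp1 was in 61.1% of the cells with Fos, against 19.2% of those without, whereas Egr1 was in 2.78% and 4.49%. In control 2 phagocyte-like cells, Junb was in 35.9% of 39 cells with Fos, against 10.6% of 170 without, and Dusp1 in 33.3%, against 15.3%. These cells share a library and a class, and the shares are a description.

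Other genes of the pathway were taken from lists, which were counted but not tested as sets. Over all genes tested, 7.56% were higher and 7.01% lower in endothelial-like cells, and 7.44% and 4.97% in fibroblast-like cells. The shares were 2.82% and 1.43% in phagocyte-like cells, and 0.649% and 0% in lymphoid-like cells. Counts of the lists below are to be read beside these shares. Of 14 other AP-1 family genes, 11 were tested in endothelial-like cells, and 4 were higher and 1 lower. Batf2, a partner of Jun proteins, had 45.2 CPM in LPS cells (78 UMIs), against 0 and 1.55 CPM in controls 1 and 2 (0 and 1 UMIs). Fosl1, which encodes Fra-1, had 30.7 CPM (53 UMIs), against 0 and 1.55 CPM (0 and 1 UMIs), and Atf4, a factor of the integrated stress response, 187 CPM, against 34.0 and 37.2 CPM. Jdp2, a repressor that dimerizes with Jun proteins, was lower there (11.6 CPM, against 22.7 and 48.1 CPM) and higher in phagocyte-like cells, at 104 CPM, against 42.7 and 19.2 CPM (edgeR, adjusted p = 0.0343 and 0.0441). In phagocyte-like cells it was the 1 of 12 that passed. In fibroblast-like cells Atf4 was the 1 of 8 that passed, and in lymphoid-like cells 0 of 11 passed in edgeR, with 5 at an unadjusted p under 0.05.

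Of 37 other immediate-early genes, 9 were higher and 4 lower among 30 tested in endothelial-like cells, 11 higher and 0 lower among 24 in fibroblast-like cells, 4 higher and 0 lower among 31 in phagocyte-like cells, and 0 of 30 passed in lymphoid-like cells in edgeR, with 9 at an unadjusted p under 0.05. Socs3, a feedback inhibitor of cytokine signalling, was higher in 3 of the 4 classes: 70.7 CPM in LPS endothelial-like cells, against 3.78 and 3.1 CPM in controls 1 and 2, 244 CPM in fibroblast-like cells, against 0 and 9.63 CPM, and 241 CPM in phagocyte-like cells, against 16 and 30.5 CPM. Nfkbiz, an atypical IkB protein, and Pim1, a kinase, were also higher in LPS endothelial-like cells (log2 fold changes 2.75 and 2.94), and Gadd45b and Ier3 in phagocyte-like cells (3.59 and 3.09). In the other direction, Plk2, Egr3 and Klf10 were lower in LPS endothelial-like cells: Egr3, a relative of Egr1, had 10.4 CPM, against 64.3 and 31.0 CPM (log2 fold change -2.06 ± 0.59, edgeR adjusted p = 0.00598).

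Among 17 MAP kinase feedback genes, 2 of 11 were higher in endothelial-like cells (Errfi1 and Dusp16), 2 of 10 in phagocyte-like cells (Dusp5 and Dusp2), 1 of 4 in fibroblast-like cells (Errfi1) and 0 of 12 in lymphoid-like cells in edgeR, where 3 had an unadjusted p under 0.05. No gene of this list was called lower in any of the 4. Dusp2, a nuclear MAP kinase phosphatase of immune cells, had 199 CPM in LPS phagocyte-like cells, against 0 and 23.8 CPM in controls 1 and 2. Of 28 upstream kinases and factors, 22 were tested in endothelial-like cells, 2 higher (Map3k8 and Mapkapk2) and 4 lower, among them Rps6ka5, Elk3 and Map3k1. Of all genes tested there, 7.56% were higher and 7.01% lower. Map3k8, the kinase TPL2 that links Toll-like receptors to ERK, had 155 CPM in LPS endothelial-like cells, against 22.7 and 9.31 CPM, and 195 CPM in LPS fibroblast-like cells, against 25 and 16 CPM. It was the 1 of 15 that passed in fibroblast-like cells. In edgeR 0 of 25 passed in phagocyte-like and 0 of 26 in lymphoid-like cells, with 3 and 2 at an unadjusted p under 0.05. Of all genes tested, 4.25% and 0.649% passed in these classes.

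Of 19 known AP-1 target genes, 10 of 13 tested were higher and 0 lower in endothelial-like cells, with a median log2 fold change of 3.29, 6 of 12 in fibroblast-like, 7 of 13 in phagocyte-like and 1 of 9 in lymphoid-like cells (Plaur). Ccl2, a monocyte chemokine, had 784 CPM in LPS endothelial-like cells (1352 UMIs), against 3.78 and 1.55 CPM (1 UMI each) in controls 1 and 2. Il6 had 136 UMIs there, against 0 in both controls. These genes are also targets of NF-kB and other factors, and part of the list was known from earlier results on these libraries. Among 14 heat-shock genes, which handling of tissue is also known to induce, 3 were higher (Hspa5, Hsp90aa1 and Hspb1) and 1 lower (Hspa1b) in endothelial-like cells, 4 of 13 higher in fibroblast-like cells, and 0 passed in phagocyte-like and lymphoid-like cells in edgeR, with 2 and 1 at an unadjusted p under 0.05. Hspa1b had 19.7 CPM in LPS endothelial-like cells, against 90.8 and 26.4 CPM. The 14 genes summed to 4909 raw CPM in LPS endothelial-like cells, against 3491 and 3404 in controls 1 and 2, to 4697, against 3472 and 3583, in phagocyte-like cells, and to 4415, against 2205 and 3243, in fibroblast-like cells. In lymphoid-like cells they summed to 3802 raw CPM, below both controls at 5325 and 4160. Their part in the levels of the 10 genes was not tested.

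Over the 19 sums of a class and a library with at least 20 cells, centred within libraries on log2(CPM + 1), Fos and Junb were the pair of the 10 genes with the highest Pearson correlation (r = 0.81), and Egr1 and Fosb the pair with the lowest (r = -0.02). The genes outside all lists whose pattern was most like the mean of the 10 were Metrnl (r = 0.93), Nfe2l2 (0.93), Lamp2 (0.92), Fuca1 (0.91), Atp6ap1 (0.91), Chmp3 (0.90), Rtn4 (0.90) and Itm2b (0.90), among 6099 candidates. The points share libraries, depth and the erythroid-like sums, which are low for most genes, so these values describe likeness over these sums only.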

How the data were processed

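Processed single-cell tables of 3 libraries were used. The authors deposited unnormalized UMI counts for each gene and barcode; per the submitters' processing notes, Cell Ranger 3.1, R 4.2.1 and Seurat 4.2.0 were used with the mm10 build, and nothing says which barcodes were removed before deposit. The LPS library's lowest barcode total was 1750 UMIs, against 501 and 1117 in controls 1 and 2.

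Barcodes under 500 UMIs, under 300 genes or over 15% mitochondrial were dropped, and the others clustered in 2 Leiden steps (scanpy 1.11.5), leaving out 139 genes: the 10 genes and the other lists. A sub-cluster was named from fixed markers, at least 3 of them detected. Doublets were not removed: no caller was run. Class sums of at least 20 cells were tested with edgeR 4.0.16 (TMM, filterByExpr, quasi-likelihood, threshold 0.05) and, as an alternative, DESeq2 1.42.0; the scripts were tested on simulated data. Levels have exact Poisson and shares exact binomial 95% intervals, which cover counting error only.

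All 10 genes are named; of other lists, up to 3 called genes each way per class, with the largest fitted change and the LPS value outside both controls, and the 8 most alike genes. The genes and lists were chosen with earlier results of these data known.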

Additional observations from a re-analysis of the deposited data

Results flagged for a closer look

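The LPS difference of 4 gene and class pairs differed between classes in edgeR's test of the difference itself. Fosb had a log2 fold change larger by 5.56 in endothelial-like than in phagocyte-like cells; without control 1 the difference was 5.39, and without control 2 it was 2.46, with 3 UMIs in place of 0 in the endothelial-like control. Atf3 had one larger by 3.0 in endothelial-like than in phagocyte-like cells, which became 4.90 without control 1 and 1.09 without control 2.

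Fos and Dusp1 had log2 fold changes that differed by -3.15 and -3.41 between endothelial-like and lymphoid-like cells. Without control 1 these were -2.14 and -2.92, and without control 2 they were -4.59 and -4.0. Without the thymocyte-marker cells, a choice made after seeing the data, the difference for Fos was -1.91 (edgeR, adjusted p = 0.382). No group had the 4 samples that a check for an outlying sample needs.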

How the results depend on the processing

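No paired analysis was possible because the labels do not number the libraries across groups and the LPS group is 1 library. Of 292 log2 fold changes of the 10 genes tested again under alternatives, 253 kept their direction and side of the threshold, and of 40 differences between classes 36 did; the cause of the changes was not tested.

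In endothelial-like cells the 4 genes called higher became 0 with DESeq2, 2 with the 10 genes kept in the clustering and 2 with a naming margin of 1, a setting chosen after seeing the data. Genes called higher over the whole table (636) became 146, 321 and 352 under the same settings, and genes called lower (590) became 157, 237 and 281. In phagocyte-like cells DESeq2 called 67 genes higher and 33 lower, against 250 and 127 in edgeR; 1 of the 10 genes was called higher without the low-count filter, and 2 lay above both controls with a marker gate in place of clusters. In fibroblast-like cells, DESeq2 called 0 of the 10 genes higher, with 80 genes higher and 82 lower over the table; clusters of 1 step gave 5, 786 and 690, with 2 of the 10 below both controls; and keeping the 10 genes in the clustering gave 1, 199 and 97. The 1 gene called lower became 0 without the filter and with the 10 genes kept.

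In lymphoid-like cells the 1 gene called higher became 0 with DESeq2's size factors, without haemoglobin, Gm42418 and mitochondrial UMIs, with the marker gate and with the 10 genes kept in the clustering, 4 with DESeq2, 6 without the filter, 3 with a stricter cell filter and 4 without thymocyte-marker cells. Genes called higher (63) became 40 with DESeq2's size factors, 143 with DESeq2, 511 without the filter, 34 without those UMIs, 0 with the gate, 173 with the stricter filter and 199 without thymocyte-marker cells. Genes called lower (0) became 41 with DESeq2, 400 without the filter, 64 with the stricter filter and 121 without thymocyte-marker cells, where 1 of the 10 genes was called lower and 1 lay below both controls. Without the filter the median log2 fold change of all genes moved to -0.49 in lymphoid-like and 0.13 in fibroblast-like cells. The 2 genes whose difference separated endothelial-like from lymphoid-like cells became 1 with DESeq2's size factors (30 genes in all, against 91) and 1 without thymocyte-marker cells.

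Some values changed sign. In phagocyte-like cells Fosl2 was at -0.11 and Ier2 at -0.020 with the marker gate, and Ier2 at -0.14 with the stricter cell filter. In fibroblast-like cells Jun was at -0.27 with clusters of 1 step. Without thymocyte-marker cells, lymphoid-like Jun was at -0.50 and Egr1 at -2.75, and their differences from endothelial-like cells at 0.17 and 2.87. With 1 control left out no test remained, and the number of the 10 genes below both controls, or the 1 that was left, ranged over 3 to 4 in endothelial-like, 3 to 6 in phagocyte-like, 2 to 2 in fibroblast-like and 0 to 1 in lymphoid-like cells, and the number above over 6 to 7, 4 to 7, 7 to 7 and 8 to 9.

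The stricter cell filter was not run for endothelial-like and fibroblast-like cells, of which it left fewer than 20 in a control. Shares of cells depended on depth: 83 of 120 left their counting interval without thinning and 56 of 120 when thinned to 500 UMIs.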
